A study of Homo sapiens with 12 samples.

Results

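The 45 genes described here code for the factors that make ribosomes: subunits and initiation factors of RNA polymerase I and proteins of the nucleolus that process ribosomal RNA (rRNA). They were chosen by name from knowledge of their function, with earlier results of these data known. All 45 are among the 26365 rows of the deposited gene table. Of these, 44 stood there under the symbol used here, and UTP4 under its older symbol CIRH1A. By role they were 5 RNA polymerase I genes, 3 proteins of the box C/D and 3 of the box H/ACA small nucleolar ribonucleoproteins, 13 factors of the small ribosomal subunit, 16 of the large subunit and 5 general nucleolar proteins. All 45 were among the 13950 genes that passed the filter on low values, a normalized count of 10 or more in 2 or more libraries. Their mean over the 12 libraries lay between 53.8 normalized counts for PPAN and 11731 for NCL, and 44 of them were over 200. They lie on 19 chromosomes, with 8 on chromosome 2.

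RNA was sequenced from HCC70, an established human cell line of basal-like, triple-negative breast cancer. The cells stably carried either an shRNA against LAD1 (shLAD1), which codes for the anchoring-filament protein ladinin-1, or a scrambled shRNA (scramble). All cells, controls included, were deprived of serum overnight, and those of the later times then received epidermal growth factor (EGF) at 50 ng/ml. The 6 groups were shLAD1 cells after 0, 40 and 240 min of EGF and scramble cells after 0, 40 and 240 min, with 2 libraries each. Both the 0 min groups were the starved cells without EGF. The labels name no more than one kind of shRNA against LAD1. Nothing there says how many clones the lines hold, and nothing says that the 2 libraries of a group came from separate cultures, so p-values measure the spread between these libraries, which may be technical.

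RNA polymerase I transcribes the long precursor of the ribosomal RNAs in the nucleolus. Small nucleolar ribonucleoproteins then modify that precursor, and large assemblies, the small subunit processome and the precursors of the large subunit, fold and cut it while ribosomal proteins join. Growing cells spend much of their transcription on this pathway, growth factors are known to drive it, and the transcription factor MYC is a well-known activator of many of its genes.

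The promoters of 38 of the 45 genes were found by symbol in the RefSeq promoter table (GRCh38.p14), with 47 windows of 300 bases from 250 before to 50 after a transcription start. Each window was searched for CACGTG, the E-box to which MYC with its partner MAX is known to bind. The 6 letters read the same on both strands, so a single search covers both, and no other motif was searched. Of the 38 genes, 15 held CACGTG (39.47%): DDX21, FBL, GAR1, GNL2, GNL3, LYAR, MRTO4, NOL6, NOP14, NOP2, PES1, RRP9, UTP20, UTP4 and WDR43. The letters stood in 7.26% of all 35116 windows, in 8.77% of 27305 genes and in 12.39% of the 10286 tested genes with a window. A match is a description of the sequence and not a binding site, and the genes were chosen by function, so the share has no test here. Shown are the 5 promoters with CACGTG whose genes had the largest change after 240 min of EGF in scramble cells. They run 5′ to 3′ on the coding (sense) strand of each gene, from RefSeq, GRCh38.p14, with CACGTG in capitals: WDR43 at chr2:28894417-28894716 (plus strand), DDX21 at chr10:68956397-68956696 (plus), NOP2 at chr12:6568242-6568541 (minus), RRP9 at chr3:51941855-51942154 (minus) and MRTO4 at chr1:19251555-19251854 (plus).
WDR43: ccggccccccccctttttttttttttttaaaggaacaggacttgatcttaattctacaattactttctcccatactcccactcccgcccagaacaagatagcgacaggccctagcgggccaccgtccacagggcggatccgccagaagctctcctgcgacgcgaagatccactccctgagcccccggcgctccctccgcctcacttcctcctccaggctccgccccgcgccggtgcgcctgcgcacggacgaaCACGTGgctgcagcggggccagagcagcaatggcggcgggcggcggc
DDX21: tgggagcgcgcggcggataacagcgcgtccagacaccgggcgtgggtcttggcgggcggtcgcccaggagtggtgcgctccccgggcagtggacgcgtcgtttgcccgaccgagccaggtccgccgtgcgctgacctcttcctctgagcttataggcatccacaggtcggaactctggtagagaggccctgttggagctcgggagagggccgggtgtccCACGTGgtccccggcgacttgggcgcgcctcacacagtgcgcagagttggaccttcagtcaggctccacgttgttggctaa
NOP2: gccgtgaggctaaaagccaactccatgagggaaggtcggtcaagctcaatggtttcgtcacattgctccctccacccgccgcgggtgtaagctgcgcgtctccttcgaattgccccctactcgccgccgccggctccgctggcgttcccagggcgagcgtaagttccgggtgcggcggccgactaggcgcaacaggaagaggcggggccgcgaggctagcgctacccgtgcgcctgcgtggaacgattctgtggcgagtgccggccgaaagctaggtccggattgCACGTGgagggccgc
RRP9: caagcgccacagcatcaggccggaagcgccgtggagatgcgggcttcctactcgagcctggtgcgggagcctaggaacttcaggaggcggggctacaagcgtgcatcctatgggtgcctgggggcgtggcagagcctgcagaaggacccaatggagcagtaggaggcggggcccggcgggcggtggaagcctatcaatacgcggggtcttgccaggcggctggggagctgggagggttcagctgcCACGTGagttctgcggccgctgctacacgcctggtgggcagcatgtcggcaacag
MRTO4: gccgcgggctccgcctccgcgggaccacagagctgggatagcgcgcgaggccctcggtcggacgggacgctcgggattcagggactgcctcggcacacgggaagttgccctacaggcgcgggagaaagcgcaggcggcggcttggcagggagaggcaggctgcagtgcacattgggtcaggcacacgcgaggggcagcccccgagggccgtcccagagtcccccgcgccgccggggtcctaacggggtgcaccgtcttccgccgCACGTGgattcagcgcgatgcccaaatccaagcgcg
The first base of the match stood at position 4, counted from the start as position 1, in WDR43, at -31 in DDX21, at 36 in NOP2, at -5 in RRP9 and at 15 in MRTO4.

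The libraries held 12428618 to 16721013 reads, and the values below are normalized counts, the reads divided by a size factor per library by the authors. LAD1 itself had 1091 and 865 normalized counts in shLAD1 cells at 0 min, against 5925 and 6406 in scramble cells (log2 fold change -2.66 ± 0.13, SE), and was called lower in shLAD1 cells at all 3 times. The immediate early gene FOS was 5.79 log2 units higher at 40 than at 0 min in shLAD1 cells and 5.43 in scramble cells, and EGR1 6.16 and 6.25. Of 12 epithelial and basal markers, all 12 averaged at least 10 normalized counts, and of 12 stromal, immune and endothelial markers 2 did, COL1A1 and CD68, while DCN and CD3D were at 0 in every library. Here a gene is called higher or lower at a Benjamini-Hochberg adjusted p under 0.05 from limma-trend, fitted to all 13950 genes on log2(normalized count + 1), and each fold change is on that scale, with its standard error (SE).

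After 240 min of EGF nearly the whole set was higher, in both kinds of cell. Against 0 min, 39 of the 45 genes were called higher in shLAD1 cells and none lower, where 10.8% of all tested genes were called higher and 7.76% lower. In scramble cells 38 were called higher and none lower, where 11.7% of all tested genes were called higher and 8.44% lower. The genes were chosen with earlier results of these data known, so these counts describe the set and do not test it. The median log2 fold change of the 45 was 0.68 in shLAD1 cells and 0.63 in scramble cells, and that of all tested genes -0.01 in shLAD1 and -0.02 in scramble cells. Scaling to total counts, which moved the median of all genes by -0.12 in shLAD1 and -0.13 in scramble cells, called 35 of the 45 higher in shLAD1 and 34 in scramble cells, where it called 7.28% and 8.19% of all tested genes higher. Of all tested genes it called 1016 higher and 1915 lower in shLAD1 cells, against 1502 and 1083 with the deposited size factors, and 1143 higher and 2200 lower in scramble cells, against 1635 and 1178. A fit to the 4 libraries compared alone called 9 of the 45 in shLAD1 cells, where it called 2.15% of all tested genes, and 39 in scramble cells, where it called 22.1%, with the same medians of 0.68 in shLAD1 and 0.63 in scramble cells. With the library number as a block, 42 of the 45 were called in shLAD1 and 41 in scramble cells, where 30.5% and 32.7% of all tested genes were, and with a block within each shRNA 44 in each, where 46.2% and 48.1% of all tested genes were. Most changes were moderate: 29 of the 45 lay between 0.4 and 0.8 log2 units in scramble cells, and 7 genes were over 2-fold in shLAD1 cells (WDR43, NOP2, NOP16, RRS1, DDX21, POLR1B and NIP7) and 5 in scramble cells (WDR43, NOP16, RRS1, DDX21 and POLR1B).

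The values of single libraries lay apart in the same way. In shLAD1 cells both libraries at 240 min were above both at 0 min for 44 of the 45 genes, where 26.8% of all tested genes had that pattern. In scramble cells the count was also 44, where the share of all tested genes was 31.6%. The exception in both was NHP2. Of the 45, 38 were called in both kinds of cell, GAR1 in shLAD1 cells alone, and FBL, NHP2, NPM1, PPAN, RRN3 and WDR75 in neither. The share of all tested genes called in both kinds of cell was not counted. The difference between the cells for GAR1 was itself not called (0.19 ± 0.23, adjusted p 1). In bulk libraries, fewer cells of a kind and less RNA per cell cannot be told apart, and a change shared by all genes is removed by the size factors.

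The summed epithelial and luminal markers also differed between these times. The 12 epithelial and basal markers summed to 143163 to 159999 normalized counts at 240 min against 99089.7 to 112414 at 0 min in shLAD1 cells. In scramble cells they summed to 132307 to 145038 at 240 min against 85399 to 90853 at 0 min. Of these, 2 were called higher in shLAD1 cells (EGFR 0.73, CDH1 0.30) and 4 in scramble cells (CDH1 0.49, KRT17 2.25, CDH3 0.45, KRT6B 0.97), and none lower. The 5 luminal and receptor markers, of which PGR did not pass the filter on low values, summed to 4037 to 4609 at 240 min against 5169 to 6060.4 at 0 min in shLAD1 cells. Their sum in scramble cells was 4007 to 4206 at 240 min against 5324 to 5533 at 0 min. ERBB2 (-0.50 in shLAD1, -0.58 in scramble) and GATA3 (-0.39 in shLAD1, -0.30 in scramble) were called lower in both. The part of these shifts in the change of the 45 genes was not tested.

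**Figure D1:**
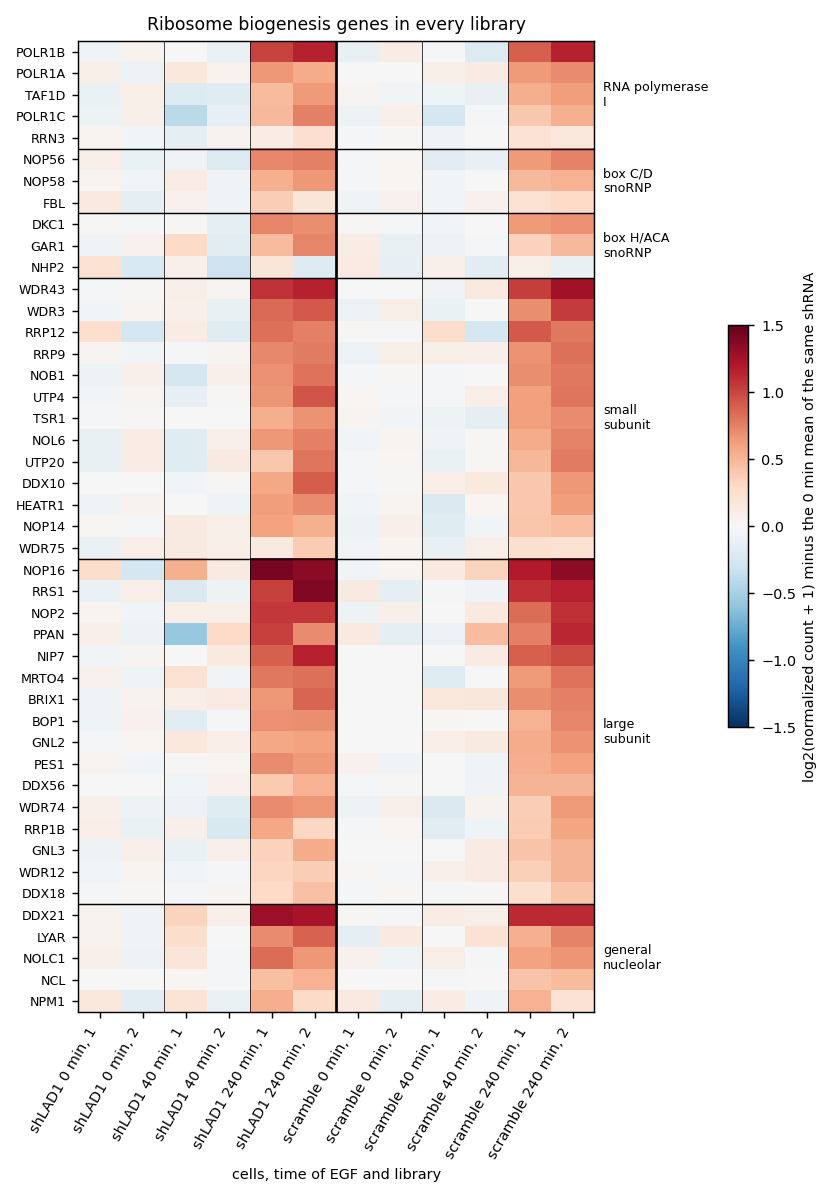
Each of the 45 genes (rows, grouped by role) in each of the 12 libraries (columns), as log2(normalized count + 1) minus the mean of the 2 libraries at 0 min of the same shRNA, from blue (lower) to red (higher). The columns at 240 min are red for nearly all rows in both shLAD1 and scramble cells, and those at 40 min stay near 0.

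Within RNA polymerase I, 4 of the 5 genes rose by 240 min in both kinds of cell, led by POLR1B, the second-largest subunit of the enzyme. POLR1B had 278 and 301 normalized counts at 0 min, 289 and 269 at 40 min, and 585 and 643 at 240 min in shLAD1 cells. It had 292 and 342 normalized counts at 0 min, 309 and 275 at 40 min, and 589 and 707 at 240 min in scramble cells. All 4 libraries at 240 min were above all 8 others, and the log2 fold change at 240 against 0 min was 1.08 ± 0.13 in shLAD1 cells (adjusted p 0.00077) and 1.03 ± 0.13 in scramble cells (adjusted p 0.000759). POLR1A, the largest subunit, which carries part of the active site, had 553 and 489.5 normalized counts at 0 min, 582 and 541 at 40 min, and 821 and 768 at 240 min in shLAD1 cells. It had 527 and 532 normalized counts at 0 min, 565 and 576 at 40 min, and 824 and 863 at 240 min in scramble cells. The libraries at 240 min again stood above all others, with changes of 0.61 ± 0.08 in shLAD1 cells (adjusted p 0.00165) and 0.67 ± 0.08 in scramble cells (adjusted p 0.000863).

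TAF1D, a subunit of the promoter selectivity factor SL1, had 255 and 293 normalized counts at 0 min, 237 and 239.9 at 40 min, and 379.6 and 426 at 240 min in shLAD1 cells. In scramble cells the values were 279 and 262 at 0 min, 258 and 250.5 at 40 min and 396 and 419 at 240 min. The 40 min libraries were the lowest in both kinds of cell, and the change at 240 min was 0.56 ± 0.10 in shLAD1 cells (adjusted p 0.0066) and 0.59 ± 0.10 in scramble cells (adjusted p 0.00467). In shLAD1 cells the call was lost without library 2 at 240 min, with a change of 0.47 (adjusted p 0.0539).

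POLR1C, a subunit that RNA polymerases I and III share, had 448 and 502 normalized counts at 0 min, 357 and 435 at 40 min, and 662 and 798 at 240 min in shLAD1 cells. The scramble values were 483 and 536 at 0 min, 425 and 498 at 40 min and 673 and 739 at 240 min. Library 2 was above library 1 in all 6 groups. Its change at 240 min, 0.62 ± 0.14 in shLAD1 cells (adjusted p 0.0154) and 0.47 ± 0.14 in scramble cells (adjusted p 0.0423), was called with the least margin of the 4. In scramble cells the POLR1C call was lost without any 1 of the 4 libraries compared, with changes of 0.54 without library 1 and 0.40 without library 2 at 240 min, and 0.40 without library 1 and 0.54 without library 2 at 0 min. In shLAD1 cells it was lost without library 2 at 240 min (0.48) and without library 1 at 0 min (0.53).

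RRN3, the initiation factor that joins the polymerase to its promoter complex and is known as a target of growth factor signalling at the protein level, had the smallest change of the 5. RRN3 had 728 and 692 normalized counts at 0 min, 646 and 739 at 40 min, and 768 and 848 at 240 min in shLAD1 cells. It had 789.8 and 814 normalized counts at 0 min, 772 and 801 at 40 min, and 931 and 897 at 240 min in scramble cells. Both libraries at 240 min were above both at 0 min in each kind of cell, but by a small margin, 0.19 ± 0.09 in shLAD1 cells (adjusted p 0.181) and 0.19 ± 0.09 in scramble cells (adjusted p 0.168), and the gene was not called. With the library number as a block within each shRNA RRN3 was called in both (adjusted p 0.0289 in shLAD1, 0.0256 in scramble). The value of RRN3 is uncertain, since its pseudogene RRN3P3 had 63.7 to 112 normalized counts and the counting could divide reads between them.

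**Figure D2:**
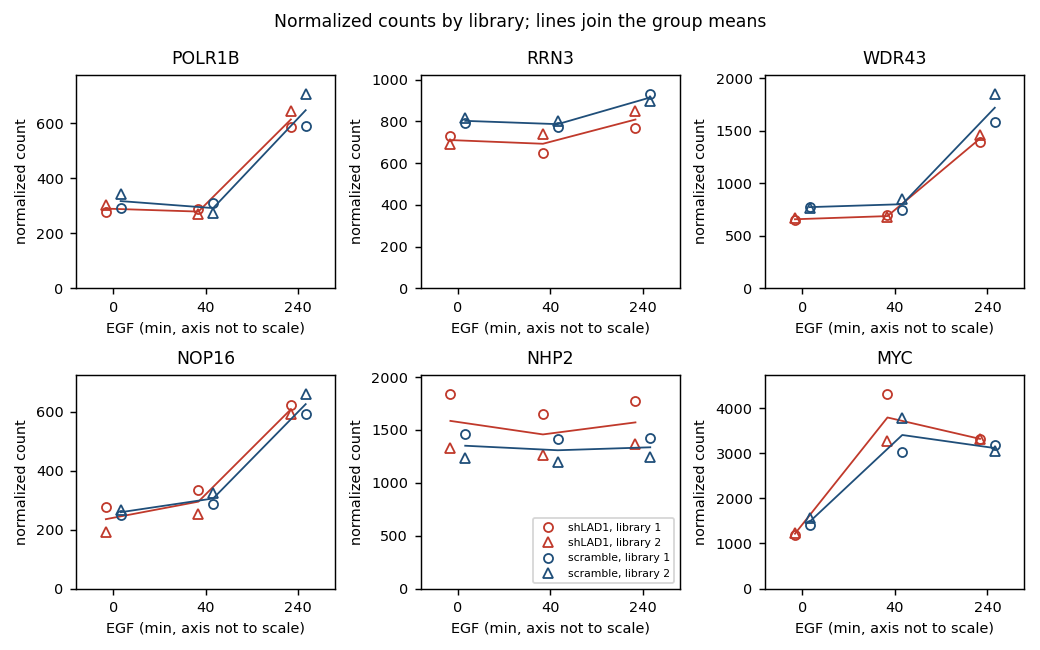
Normalized counts (vertical axes, from 0) of 5 of the genes and of MYC by time of EGF (horizontal axis, not to scale), with 1 point per library, red for shLAD1 and blue for scramble cells, circles for library 1 and triangles for library 2; lines join the means of the 2 libraries. POLR1B, WDR43 and NOP16 are high at 240 min alone, RRN3 lies in a narrow band, NHP2 has library 1 above library 2 at each time, and MYC is already high at 40 min.

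The small nucleolar ribonucleoproteins rose in part. Of the 3 core proteins of box C/D particles, which guide methylation of rRNA, NOP56 had 1692 and 1484 normalized counts at 0 min, 1521 and 1374 at 40 min, and 2605 and 2680.5 at 240 min in shLAD1 cells. In scramble cells NOP56 had 1652 and 1715 at 0 min, 1509 and 1552 at 40 min and 2619.5 and 2818 at 240 min. Its values at 40 min overlapped or lay just below those at 0 min, and those at 240 min stood clear above, with changes of 0.74 ± 0.08 in shLAD1 cells (adjusted p 0.000681) and 0.69 ± 0.08 in scramble cells (adjusted p 0.000722). Its partner NOP58 was also called, at 0.59 in shLAD1 and 0.50 in scramble cells. The third, FBL (fibrillarin, the methyltransferase itself), had 2058 and 1692 normalized counts at 0 min, 1950.1 and 1806 at 40 min, and 2405 and 2112 at 240 min in shLAD1 cells. Its scramble values were 1786 and 1947, 1806 and 1954, and 2186 and 2290.2 at 0, 40 and 240 min. The 240 min libraries were the highest, but the change was 0.27 ± 0.11 in shLAD1 cells (adjusted p 0.119) and 0.26 ± 0.11 in scramble cells (adjusted p 0.125) and not called. With the library number as a block within each shRNA the adjusted p for FBL was 9.26e-05 in shLAD1 and 0.00013 in scramble cells, and without library 1 at 0 min it was 0.0437 in shLAD1 cells with a change of 0.41.

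The box H/ACA particles convert uridine to pseudouridine in rRNA, and their catalytic subunit DKC1 (dyskerin) rose. DKC1 had 2036 and 2003 normalized counts at 0 min, 2051 and 1843 at 40 min, and 3352 and 3263 at 240 min in shLAD1 cells. It had 2094 and 2054 normalized counts at 0 min, 2019 and 2063 at 40 min, and 3238 and 3332 at 240 min in scramble cells. The 2 libraries of each group lay close together and those at 240 min far above, with changes of 0.71 ± 0.07 in shLAD1 cells (adjusted p 0.000283) and 0.66 ± 0.07 in scramble cells (adjusted p 0.00032). GAR1, another protein of the particle, had 168 and 183 normalized counts at 0 min, 214 and 156 at 40 min, and 245 and 292 at 240 min in shLAD1 cells. Its scramble values were 223 and 191, 195 and 204, and 262 and 288 at 0, 40 and 240 min. Both 240 min libraries were highest in each kind of cell, with a change of 0.60 ± 0.17 in shLAD1 cells (adjusted p 0.0341) and 0.41 ± 0.17 in scramble cells (adjusted p 0.116). The GAR1 call in shLAD1 cells was lost without library 2 at 240 min (0.48), without library 1 at 0 min (0.54) and without library 2 at 0 min (0.66), and with a block within each shRNA GAR1 was called in scramble cells too (adjusted p 0.02).

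NHP2, the third H/ACA protein described here, was the one gene of the 45 whose change at 240 min was not above 0. NHP2 had 1837 and 1333 normalized counts at 0 min, 1652 and 1263 at 40 min, and 1774 and 1368 at 240 min in shLAD1 cells. It had 1463 and 1238 normalized counts at 0 min, 1415 and 1199.8 at 40 min, and 1426 and 1245 at 240 min in scramble cells. Library 1 was above library 2 in all 6 groups, the groups overlapped at every time, and the change at 240 min was -0.01 ± 0.20 in shLAD1 cells (adjusted p 0.99) and -0.01 ± 0.20 in scramble cells (adjusted p 0.972). Its 95% interval ran from -0.46 to 0.45 in shLAD1 and from -0.47 to 0.44 in scramble cells.

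Among the 13 small subunit factors, 12 were called higher at 240 min in both shLAD1 and scramble cells. The largest change was that of WDR43, a WD-repeat protein of the UTP-A subcomplex that binds the rRNA precursor first. WDR43 had 648 and 665 normalized counts at 0 min, 699 and 674 at 40 min, and 1387 and 1459.8 at 240 min in shLAD1 cells. It had 776 and 767 normalized counts at 0 min, 746 and 853 at 40 min, and 1586 and 1848 at 240 min in scramble cells. The 240 min libraries were over all others, with a change of 1.12 ± 0.09 in shLAD1 cells (adjusted p 0.000168) and 1.15 ± 0.09 in scramble cells (adjusted p 0.000149), that is 2.17-fold in shLAD1 and 2.22-fold in scramble cells. Of the same subcomplex, UTP4 changed by 0.80 in shLAD1 and 0.71 in scramble cells and HEATR1, a large scaffold of HEAT repeats, by 0.67 in shLAD1 and 0.52 in scramble cells. WDR75, the fourth of them, had 671 and 775 normalized counts at 0 min, 791 and 772 at 40 min, and 800.1 and 938 at 240 min in shLAD1 cells. Its scramble values were 659 and 700.2, 628 and 719.7, and 804 and 799 at 0, 40 and 240 min. The 240 min libraries of WDR75 were the highest, but its change of 0.26 ± 0.11 in shLAD1 cells (adjusted p 0.128) and 0.24 ± 0.11 in scramble cells (adjusted p 0.16) was not called. It was called with the library number as a block (adjusted p 0.0343 in shLAD1, 0.0493 in scramble).

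The other small subunit factors lay between these. WDR3, of the UTP-B subcomplex, changed by 0.88 in shLAD1 and 0.87 in scramble cells, and NOL6, of UTP-C, by 0.70 in shLAD1 and 0.65 in scramble cells. RRP9, a protein of the U3 particle that base-pairs with the precursor, changed by 0.75 in shLAD1 and 0.75 in scramble cells. The helicase DDX10 changed by 0.75 in shLAD1 and 0.53 in scramble cells, NOP14 by 0.57 in shLAD1 and 0.44 in scramble cells and UTP20 by 0.60 in shLAD1 and 0.64 in scramble cells. Of the later acting factors, RRP12, known from yeast to act in export of both subunits, changed by 0.79 in shLAD1 and 0.85 in scramble cells. TSR1, a GTPase-like factor bound to the late precursor, changed by 0.61 in shLAD1 and 0.66 in scramble cells. NOB1, the nuclease that makes the last cut at the end of the small subunit rRNA, changed by 0.75 in shLAD1 and 0.74 in scramble cells. The called small subunit genes ranged over 0.44 to 1.15 in scramble cells, and the 3 late factors lay inside that range. Several of these calls were lost when 1 library was left out. That of RRP12 was lost in shLAD1 cells without library 1 at 240 min (0.76), library 2 at 240 min (0.82) or library 2 at 0 min (0.54). In scramble cells RRP12 lost its call without library 1 at 240 min (0.79), library 2 at 240 min (0.92), library 1 at 0 min (0.88) or library 2 at 0 min (0.83). That of UTP20 was lost in shLAD1 cells without library 2 at 240 min (0.40), library 1 at 0 min (0.48) or library 2 at 0 min (0.72). In scramble cells UTP20 lost its call without library 2 at 240 min (0.50), library 1 at 0 min (0.61) or library 2 at 0 min (0.67). In scramble cells alone, the DDX10 call was lost without library 2 at 240 min (0.41), library 1 at 0 min (0.51) or library 2 at 0 min (0.54). There the NOP14 call was lost without library 2 at 240 min (0.42) or library 1 at 0 min (0.36) and that of HEATR1 without library 2 at 240 min (0.41) or library 1 at 0 min (0.48).

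Among the 16 large subunit factors, 15 were called higher at 240 min in each kind of cell. NOP16, a nucleolar protein of the early precursor, had the largest change of all 45. NOP16 had 278 and 192 normalized counts at 0 min, 336 and 254 at 40 min, and 624 and 592 at 240 min in shLAD1 cells. It had 251 and 267 normalized counts at 0 min, 286 and 326 at 40 min, and 592 and 659 at 240 min in scramble cells. The 40 min values were on average somewhat above those at 0 min, with overlap in shLAD1 cells, and the 240 min values were far above both. The change was 1.39 ± 0.18 in shLAD1 cells (adjusted p 0.00135) and 1.27 ± 0.18 in scramble cells (adjusted p 0.00169), that is 2.62-fold in shLAD1 and 2.41-fold in scramble cells. RRS1, which brings a small rRNA-protein particle into the precursor, changed by 1.21 in shLAD1 and 1.13 in scramble cells. NOP2, a methyltransferase of large subunit rRNA, changed by 1.06 in shLAD1 and 0.96 in scramble cells, and NIP7, an RNA-binding factor, by 1.03 in shLAD1 and 0.94 in scramble cells.

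In the PeBoW complex, which is needed for the large subunit precursor to mature, PES1 changed by 0.67 in shLAD1 and 0.57 in scramble cells, BOP1 by 0.69 in shLAD1 and 0.63 in scramble cells and WDR12 by 0.34 in shLAD1 and 0.43 in scramble cells. The GTPases GNL2 and GNL3 (nucleostemin) changed by 0.59 in shLAD1 and 0.62 in scramble cells and by 0.45 in shLAD1 and 0.47 in scramble cells. BRIX1 changed by 0.76 in shLAD1 and 0.73 in scramble cells and MRTO4, which holds the place of the stalk protein on the precursor, by 0.81 in shLAD1 and 0.73 in scramble cells. WDR74 changed by 0.68 in shLAD1 and 0.50 in scramble cells, RRP1B by 0.44 in shLAD1 and 0.49 in scramble cells and the helicase DDX56 by 0.46 in shLAD1 and 0.51 in scramble cells. RRP1B was near the threshold, with adjusted p 0.0494 in shLAD1 and 0.0324 in scramble cells. Its call was lost in shLAD1 cells without library 1 at 240 min (0.31), library 2 at 240 min (0.58), library 1 at 0 min (0.55) or library 2 at 0 min (0.34). In scramble cells RRP1B lost its call without library 1 at 240 min (0.59), library 2 at 240 min (0.38), library 1 at 0 min (0.46) or library 2 at 0 min (0.51). The GNL3 call was lost in shLAD1 cells without library 2 at 240 min (0.35) or library 1 at 0 min (0.38). In scramble cells GNL3 lost its call without library 2 at 240 min (0.43), library 1 at 0 min (0.47) or library 2 at 0 min (0.47). That of WDR12 was lost in shLAD1 cells without library 1 at 240 min (0.37), library 2 at 240 min (0.32) or library 1 at 0 min (0.30). That of WDR74 was lost in scramble cells without library 2 at 240 min (0.36), library 1 at 0 min (0.42) or library 2 at 0 min (0.58).

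The helicase DDX18 had the smallest change of the large subunit group in scramble cells. DDX18 had 1302 and 1329 normalized counts at 0 min, 1292 and 1352 at 40 min, and 1621 and 1789 at 240 min in shLAD1 cells. It had 1454 and 1513 normalized counts at 0 min, 1459 and 1508 at 40 min, and 1764 and 1975 at 240 min in scramble cells. Its 240 min libraries were above the others of the same cells by 0.37 ± 0.08 in shLAD1 cells (adjusted p 0.0117) and 0.33 ± 0.08 in scramble cells (adjusted p 0.0174). The DDX18 call was lost in scramble cells without library 2 at 240 min (0.25), library 1 at 0 min (0.30) or library 2 at 0 min (0.36), and in shLAD1 cells without library 2 at 240 min (0.30) or library 1 at 0 min (0.36). PPAN, a factor of the Brix family, had the lowest normalized counts of the 45, which are not corrected for gene length. PPAN had 44.2 and 39.7 normalized counts at 0 min, 28 and 51.3 at 40 min, and 85.9 and 69 at 240 min in shLAD1 cells. It had 43.5 and 36 normalized counts at 0 min, 37.3 and 55.1 at 40 min, and 67.5 and 88 at 240 min in scramble cells. The 240 min libraries were above the others, but the spread was wide, the change was 0.86 ± 0.32 in shLAD1 cells (adjusted p 0.0955) and 0.95 ± 0.32 in scramble cells (adjusted p 0.0667), and the gene was not called. With the library number as a block PPAN was called in both (adjusted p 0.0489 in shLAD1, 0.0321 in scramble). It was also called in scramble cells by the limma-trend fit to the 4 libraries compared alone (adjusted p 0.0399). The value of PPAN is uncertain, since the readthrough transcript PPAN-P2RY11 shares its exons and is listed at 0 in all 12 libraries, and the sources used here do not say how shared reads were counted.

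The general nucleolar proteins include NCL, which had the highest normalized counts of the set. DDX21, a helicase that is known to bind rRNA and to act in RNA polymerase I transcription, had 1886 and 1745 normalized counts at 0 min, 2289 and 1915 at 40 min, and 4451 and 4272 at 240 min in shLAD1 cells. It had 2119 and 2051 normalized counts at 0 min, 2246 and 2223 at 40 min, and 4525 and 4520.3 at 240 min in scramble cells. The 4 libraries at 240 min stood at about the same height and well above all others, with a change of 1.26 ± 0.09 in shLAD1 cells (adjusted p 7.42e-05) and 1.12 ± 0.09 in scramble cells (adjusted p 0.000128), that is 2.4-fold in shLAD1 and 2.17-fold in scramble cells. NCL (nucleolin), an abundant RNA-binding protein, changed by 0.48 in shLAD1 and 0.45 in scramble cells, NOLC1, a chaperone of small nucleolar particles, by 0.74 in shLAD1 and 0.63 in scramble cells, and LYAR, a zinc finger protein, by 0.80 in shLAD1 and 0.64 in scramble cells, all called in both kinds of cell. The LYAR call was lost in scramble cells without library 2 at 240 min (0.54) or library 1 at 0 min (0.50).

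NPM1 (nucleophosmin), a histone and ribosome chaperone, had 2834 and 2291 normalized counts at 0 min, 2948 and 2387 at 40 min, and 3703 and 3119.7 at 240 min in shLAD1 cells. Its scramble values were 2934 and 2442, 2880.2 and 2578, and 3842 and 3107 at 0, 40 and 240 min. Library 1 was above library 2 in all 6 groups, and the 240 min libraries were above the others within each number. The change was 0.42 ± 0.16 in shLAD1 cells (adjusted p 0.121) and 0.37 ± 0.16 in scramble cells (adjusted p 0.158) and not called. With the library number as a block NPM1 was called in both (adjusted p 0.000326 in shLAD1, 0.000599 in scramble). NPM1 is known to have processed pseudogenes, which could take part of its reads. A difference between library 1 and 2 in the same direction in all 6 groups was seen for NPM1, RRP12, DDX21 and NHP2 (library 1 above) and for NOL6, UTP20, DDX10, DDX18, POLR1C, NIP7 and NOB1 (library 2 above), where 12.9% and 14.5% of all tested genes showed it.

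After 40 min of EGF none of the 45 genes was called against 0 min by limma-trend in shLAD1 or scramble cells, where 1.04% and 0.853% of all tested genes were called. Of the 45, 1 gene in shLAD1 and 0 in scramble cells had an unadjusted p under 0.05, where 761 and 634 of the 13950 tested genes had. edgeR and DESeq2 on the recovered reads also called 0 of the 45 in both, with 1 and 0 genes under 0.05 unadjusted. Of all tested genes edgeR called 143 in shLAD1 and 119 in scramble cells, and DESeq2 212 and 173. The log2 fold changes by limma-trend ran from -0.27 to 0.33 in shLAD1 cells, with a median of 0.00. In scramble cells they ran from -0.14 to 0.24, with a median of -0.02. Both libraries at 40 min were above both at 0 min for 6 genes in shLAD1 cells and 9 in scramble cells, where 12.8% and 16.2% of all tested genes were, and below them for 3 and 5, where 11.7% and 16.1% were. A 95% interval of the median width reached 0.24 log2 units to each side.

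With the library number as a block within each shRNA, 3 of the 45 were called at 40 min in shLAD1 cells, where that fit called 4.77% of all tested genes: DDX21 (0.21, adjusted p 0.0107), NOP16 (0.33, adjusted p 0.0444) and POLR1C (-0.27, adjusted p 0.0298). None was called in scramble cells, where it called 3.8% of all tested genes. Against 40 min, the genes were higher at 240 min: 38 were called higher in shLAD1 cells, where 8.84% of all tested genes were, and 38 in scramble cells, where 10.2% were. The medians were 0.70 in shLAD1 and 0.61 in scramble cells, and both 240 min libraries were above both 40 min libraries for 44 genes in each, where 26.1% and 31.6% of all tested genes had that pattern, with NHP2 again the exception. The comparisons with 0 and with 40 min share the 240 min libraries, so their counts are not independent, and those at 40 and at 240 min against 0 min share the 0 min libraries.

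**Figure D3:**
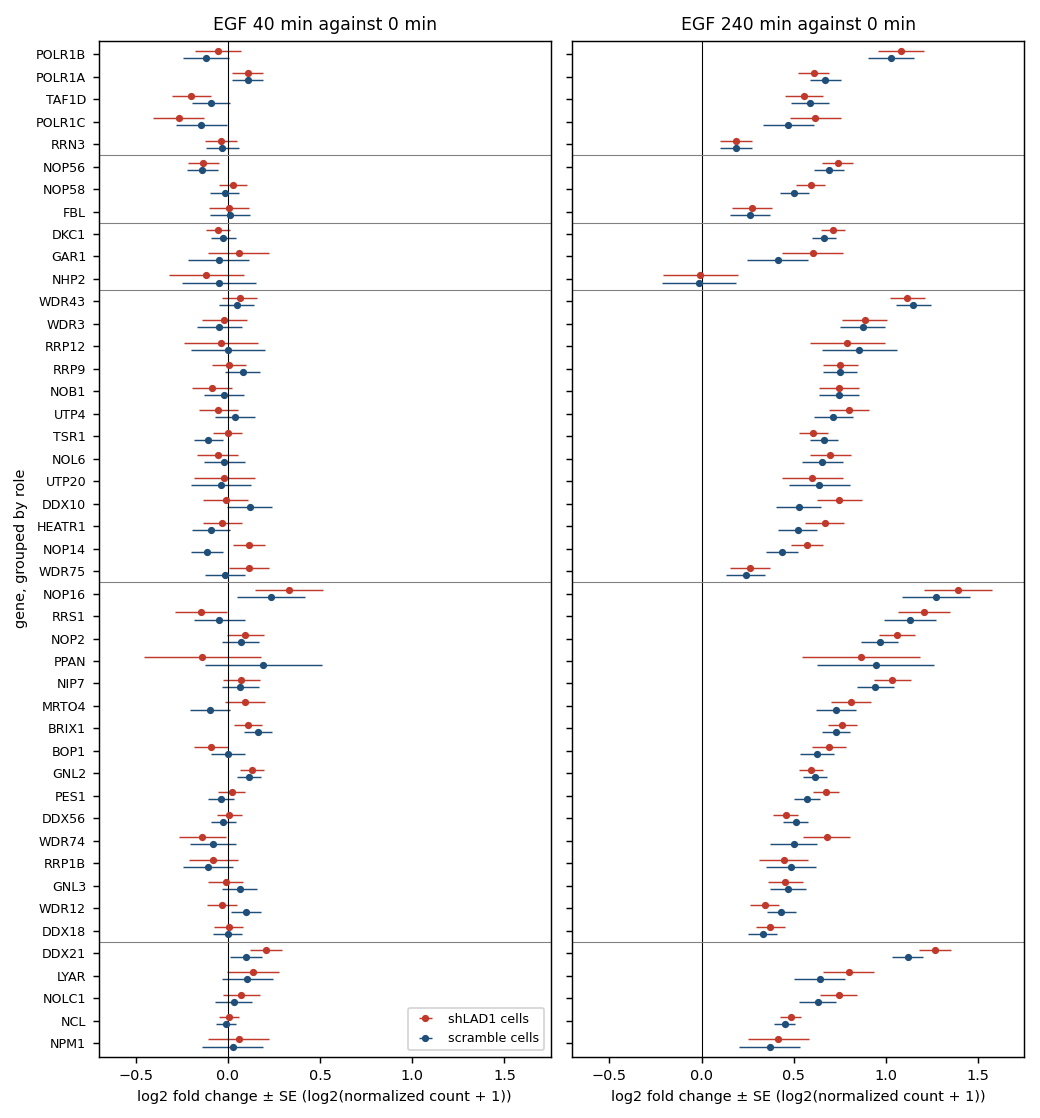
Log2 fold change on the log2(normalized count + 1) scale (horizontal axes, points with bars of 1 SE) of each of the 45 genes (rows, grouped by role) after 40 min (left) and 240 min (right) of EGF against 0 min, in shLAD1 cells (red) and scramble cells (blue). At 40 min the points scatter around 0, and at 240 min all but those of NHP2 lie to the right of 0, with NOP16, RRS1, WDR43, DDX21 and POLR1B past 1 in both.

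Other genes of the pathway, which were not among the 45, also rose in part. Of 145 such genes that passed the filter, 71 were called higher and 2 lower at 240 min in shLAD1 cells, with a median of 0.35. In scramble cells 69 were called higher and 0 lower, with a median of 0.31. The shares of all tested genes were 10.8% higher and 7.76% lower in shLAD1 cells, and 11.7% and 8.44% in scramble cells. By group and in shLAD1 then scramble cells, the calls were 27 and 25 higher of 44 small subunit factors, 27 and 26 of 48 large subunit factors, 12 and 13 of 37 snoRNP, exosome and RNase MRP proteins, and 5 and 5 of 16 other RNA polymerase I factors. The genes called lower were SPATA5 (-0.63) and EXOSC8 (-0.28), both in shLAD1 cells alone and both named here after their values were seen. None of the 145 was called at 40 min by limma-trend, where 1.04% of all tested genes were in shLAD1 and 0.853% in scramble cells. At an unadjusted p under 0.05 there were 7 in shLAD1 and 5 in scramble cells, where 761 and 634 of the 13950 tested genes were.

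The polymerase subunits POLR1E (1.01 in shLAD1, 0.86 in scramble) and CD3EAP (1.21 in shLAD1, 1.13 in scramble), which form a pair that helps the enzyme start and elongate, were both called, while POLR1D, shared with RNA polymerase III, changed by 0.23 in shLAD1 and 0.28 in scramble cells. TAF1A, like TAF1D a subunit of SL1, changed by 0.55 in shLAD1 and 0.62 in scramble cells, and UBTF, the factor that holds rRNA genes open, by 0.13 ± 0.06 in shLAD1 and -0.07 ± 0.06 in scramble cells and was not called. The fifth call of that list, PTRF (1.11 in shLAD1, 1.24 in scramble), named after its values were seen, is best known as a coat protein of caveolae. By adjusted p in scramble cells, the first 4 small subunit factors were RCL1 (1.0 in shLAD1, 1.13 in scramble), BYSL (1.05 in shLAD1, 0.99 in scramble), DDX47 (0.87 in shLAD1, 0.81 in scramble) and PWP2 (0.65 in shLAD1, 0.67 in scramble), and the first 4 large subunit factors CCDC86 (1.11 in shLAD1, 1.01 in scramble), SURF6 (0.87 in shLAD1, 0.86 in scramble), URB2 (0.88 in shLAD1, 0.85 in scramble) and RRP1 (0.78 in shLAD1, 0.82 in scramble). In the third group they were POP1 of RNase MRP (0.89 in shLAD1, 0.81 in scramble), NOP10 of the H/ACA particle (0.48 in shLAD1, 0.55 in scramble), RPP25 (0.44 in shLAD1, 0.48 in scramble) and the exosome nuclease DIS3 (0.45 in shLAD1, 0.43 in scramble). All values are log2 fold changes at 240 against 0 min.

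Few genes of the ribosomal proteins themselves were called. Of 77 cytosolic ribosomal protein genes, 0 were called at 240 min in shLAD1 cells by limma-trend (3 at an unadjusted p under 0.05) and 2 in scramble cells, RPL36A (0.76 ± 0.18, adjusted p 0.0155) and RPL24 (0.23 ± 0.07, adjusted p 0.0426). Their median log2 fold change was 0.04 in shLAD1 and 0.02 in scramble cells. Of 22 genes of RNA polymerase III, which makes the smallest rRNA and the transfer RNAs, 5 were called higher and 1 lower in shLAD1 cells and 4 higher and 2 lower in scramble cells. Of all tested genes 10.8% were called higher and 7.76% lower in shLAD1 cells, and 11.7% and 8.44% in scramble cells. Called higher in both were the subunits POLR3D (0.71 in shLAD1, 1.07 in scramble) and POLR3E (0.44 in shLAD1, 0.49 in scramble) and the initiation factor GTF3C4 (0.47 in shLAD1, 0.58 in scramble), while MAF1, a repressor of this polymerase, was called lower in scramble cells alone, with -0.24 in shLAD1 cells (adjusted p 0.0508) and -0.30 in scramble cells (adjusted p 0.0182). In each kind of cell a gene of the list other than MAF1 was also called lower and is not named here.

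**Figure D4:**
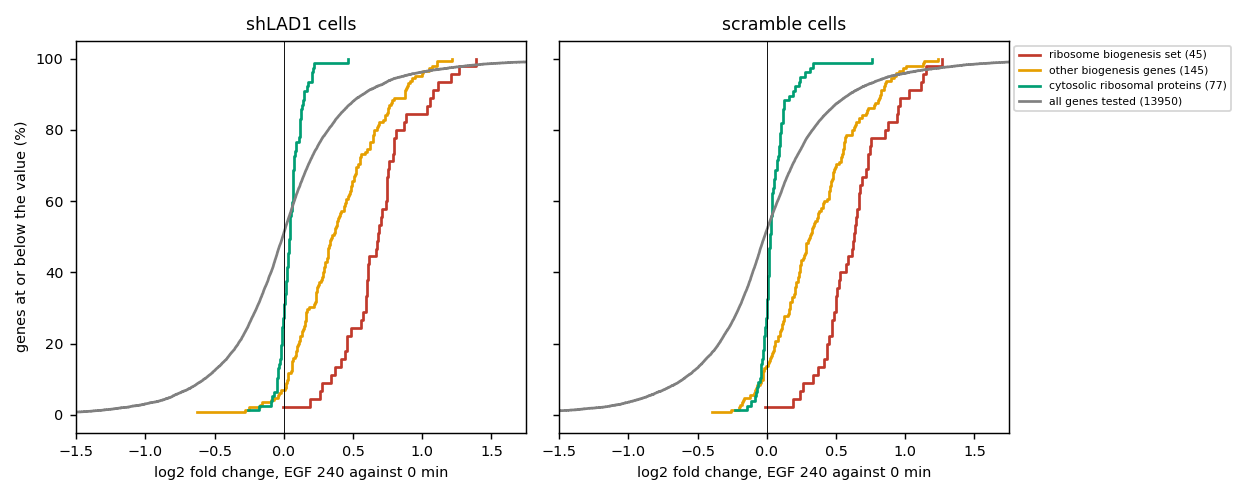
Share of genes (vertical axis, %) with a log2 fold change at or below the value on the horizontal axis, for EGF at 240 against 0 min, in shLAD1 cells (left) and scramble cells (right). The curve of the 45 genes (red) lies to the right of that of the 145 other biogenesis genes (orange), and the 77 cytosolic ribosomal protein genes (green) rise steeply near 0, inside the wider spread of all 13950 tested genes (grey), whose curve runs past both ends of the axis.

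MYC, which encodes the transcription factor, was called higher at 40 min already. MYC had 1195 and 1239 normalized counts at 0 min, 4312 and 3282 at 40 min, and 3326 and 3318 at 240 min in shLAD1 cells. It had 1403 and 1568 normalized counts at 0 min, 3036 and 3779.9 at 40 min, and 3188 and 3047 at 240 min in scramble cells. All 8 libraries with EGF were above all 4 without it, and the 40 min change was 1.63 ± 0.14 (adjusted p 0.000321) in shLAD1 and 1.19 ± 0.14 (adjusted p 0.00315) in scramble cells. At 240 min the MYC change was 1.45 ± 0.14 in shLAD1 cells (adjusted p 0.000296) and 1.07 ± 0.14 in scramble cells (adjusted p 0.000878). Of its antagonists, MXD3 fell by 240 min, with 150.4 and 151 normalized counts at 240 min against 362 and 388 at 0 min in shLAD1 cells and 119 and 119 against 388 and 372 in scramble cells (log2 fold changes -1.31 in shLAD1, -1.66 in scramble, adjusted p 9.02e-05 in shLAD1, 2.99e-05 in scramble). At 240 min MXD4 was called lower in scramble cells (-0.78). MXD1 was called higher there (0.68) but not in shLAD1 cells (0.30, limma-trend adjusted p 0.101). At 40 min too, MXD1 was called higher in scramble cells alone (0.61, limma-trend adjusted p 0.0484). MLX, a partner of the related MLXIP, was called higher at 240 min in both (0.75 in shLAD1, 0.74 in scramble).

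Within the 45, the genes with and without CACGTG in the promoter windows shown above had medians less than 0.1 log2 units apart at 240 min. The 15 with the letters had a median of 0.70 in shLAD1 and 0.64 in scramble cells, and the 23 with a window without them 0.67 and 0.59. FBL and GAR1 hold the letters and were not called in scramble cells. Over all tested genes with a window the medians in scramble cells were 0.00 with and -0.01 without the letters. Of 10 growth signalling and translation regulators, LARP1, which binds mRNAs of ribosomal proteins, was called higher at 240 min in both kinds of cell (0.48 in shLAD1, 0.45 in scramble) and MTOR lower (-0.25 in shLAD1, -0.22 in scramble).

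No difference in level between shLAD1 and scramble cells was called for the 45 genes without the library number as a block. With the block 4 were called lower in shLAD1 cells at 0 min, 4 at 40 min and 1 at 240 min, where that fit called 11.5%, 11.3% and 10.5% of all tested genes. By limma-trend without the block none was called at 0 min, nor at 40 or 240 min, where 1.56%, 1.65% and 0.953% of all tested genes were called. At an unadjusted p under 0.05 there were 9, 6 and 2 of the 45 at the 3 times, where 2197, 2247 and 2109 of the 13950 tested genes were. edgeR on the recovered reads called 0 of the 45 (8, 7 and 2 unadjusted), where it called 210, 227 and 121 of all tested genes. DESeq2 called 0 of the 45 (7, 5 and 1 unadjusted), where it called 514, 533 and 383. The median differences, shLAD1 minus scramble, were -0.10, -0.08 and -0.04 log2 units at 0, 40 and 240 min, against 0.00 for all tested genes at each time. In the authors' deposited table, whose comparison matched shLAD1 against scramble at 0 min by its values, none of the 45 had an adjusted p under 0.05, where 3.56% of genes did. The lowest adjusted p there was 0.283 and the median log2 fold change -0.10.

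Most of the differences that were seen pointed down in shLAD1 cells. The log2 difference was below 0 for 34, 36 and 34 of the 45 at 0, 40 and 240 min, where it was for 6925, 6921 and 6952 of the 13950 tested genes. The tilt was not particular to the 45. Below 0 at these times were also 91, 90 and 80 of the 145 other biogenesis genes. Of the 77 cytosolic ribosomal protein genes 48, 66 and 45 were, with a median of -0.13 at 40 min. Of the 45, 26 were lower in shLAD1 than in scramble cells at all 3 times by their mean and 4 were higher at all 3 (NOL6, WDR75, RRP12 and NHP2). The 3 times compare the same 2 kinds of cell and are not independent, and the share of all tested genes with such a pattern was not counted. Both shLAD1 libraries were below both scramble libraries for 21 genes at 0 min, 17 at 40 min and 15 at 240 min, where 22.7%, 23.2% and 22.4% of all tested genes were, and above them for 1, 2 and 2, where 21.9%, 23.4% and 22.2% were. The lowest adjusted p was that of DDX10 at 40 min, with 252 and 263 normalized counts in shLAD1 and 359 and 372 in scramble cells (-0.50 ± 0.12, adjusted p 0.0841).

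The fit with the library number as a block called 11.5% of all tested genes at 0 min, 11.3% at 40 min and 10.5% at 240 min. The members it called lower at 0 min were UTP4 (-0.26, adjusted p 0.047), NIP7 (-0.25, 0.0378), DDX10 (-0.37, 0.0385) and UTP20 (-0.34, 0.0418), each with its log2 difference and adjusted p. At 40 min they were UTP4 (-0.35, 0.0141), BOP1 (-0.31, 0.0342), NIP7 (-0.25, 0.0414) and DDX10 (-0.50, 0.0112), and at 240 min UTP20 (-0.37, 0.031). The summed stromal, immune and endothelial markers also differed between the cells, with 1953 to 2246 normalized counts in shLAD1 and 1018 to 1178 in scramble libraries at 0 min, with 2 of the 12, COL1A1 and CD68, at a mean of 10 or more and DCN and CD3D at 0, and their part in these differences was not tested.

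No difference in the size of the EGF response between shLAD1 and scramble cells was called for the 45 genes. For the difference of the 240 min responses, shLAD1 minus scramble, limma-trend called none of the 45, where 0.0% of all tested genes were called, and none had an unadjusted p under 0.05. edgeR and DESeq2 also called 0 of the 45, with 0 at an unadjusted p under 0.05. The response was the larger in shLAD1 cells for 32 of the 45, with a median difference of 0.04 and a range from -0.09 (WDR12) to 0.22 (DDX10), and the 95% interval of the difference held 0 for all 45. An interval of the median width reached 0.33 log2 units to each side, and that of PPAN, the widest, ran from -1.10 to 0.93. For POLR1B the difference was 0.05 ± 0.18 (95% interval -0.35 to 0.46), and for DDX21 0.15 ± 0.12 (-0.13 to 0.42). At 40 min the difference was also called for none of the 45 (0.0% of all tested genes; 0 unadjusted), with a median of 0.01 and a range from -0.33 to 0.23.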

How the data were processed

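RNA from 12 HCC70 libraries was poly-A selected and made into libraries with the TruSeq v2 kit, per the labels' protocols. STAR, DESeq2 and the build hg19 are named in the submitters' processing notes, while the sources used here give no versions, counting tool, annotation or use of strand. Deposited was 1 table of 26365 symbols, whose signal columns hold the authors' normalized counts. Every value (100%) was a whole multiple, to within 0.001, of the smallest one in its column, which recovers the reads, 12428618 to 16721013 per library. Further deposited columns give a mean signal over libraries, 1 comparison as log2 fold change and standard error, its Wald score and p-values. Its comparison is not named in the file headers, and matched shLAD1 against scramble at 0 min within 0.05 log2 units for 99.982% of the 11243 genes with a mean of at least 50. No other value columns were present (0).

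Since the file holds normalized counts, limma-trend (limma 3.58.1 in R 4.3.3, with robust variance) was the main test. It was run on log2(normalized count + 1) with a mean per group over all 12 libraries. It covered the 13950 genes whose normalized count reached 10 in 2 or more libraries. Benjamini-Hochberg adjustment was over all of these in each of 11 comparisons, with calls under 0.05. Fold changes on this scale understate the change of low genes. Alternatives were pseudocounts of 0.5 and 8, no filter, upper-quartile and total-count scaling, the compared groups alone, leaving out each library, edgeR 4.0.16 and DESeq2 1.42.0 on the recovered reads, and the library number as a block. Same-numbered libraries deviated together from their group means in every pair of groups, with correlations of 0.645 to 0.734 in 6 pairs with the same shRNA and 0.247 to 0.307 in 9 pairs with different ones. The numbers come from the sample titles. The column headers and sample descriptions also begin with the letter o for every library 1 and s for every library 2. What these letters stand for is not known here. The numbers were therefore taken to pair the libraries in the fits with a block. The main test was fitted without a block, so its calls leave this pairing out. The scripts were tested on simulated data.

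The 45 genes, the lists and the tests were chosen with earlier results of these data known. Named with all values were the genes of each role with the largest and smallest change at 240 min in scramble cells, every gene not called there, all RNA polymerase I genes, and up to 4 called genes of each list by adjusted p. Promoter sequences are RefSeq's, GRCh38.p14, matched by symbol. A result on 1 of the listed genes is not reported here.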

Additional observations from a re-analysis of the deposited data

How the results depend on the processing

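Counts of the 45 genes called at 240 min varied little with most settings. They stayed at 34 to 44 in both kinds of cell against 0 min under every alternative other than leaving out a library and fitting only the groups compared. That last fit, with 4 libraries, called 9 in shLAD1 cells against 0 min and 7 against 40 min, where it called 300 and 150 of all tested genes, and 39 and 39 in scramble cells. Leaving out 1 library at a time gave 30 to 36 in shLAD1 and 27 to 35 in scramble cells against 0 min, 32 to 36 and 28 to 34 against 40 min, and 0 in every fit of the 7 other comparisons, with the lone library of a group assumed to vary like the others. In those fits 30 genes in shLAD1 and 27 in scramble cells were called whichever library was left out. The share of all tested genes called in those fits is not given here, so these counts have no baseline. NHP2 changed sign in 4 of the fits without 1 library. Its change became 0.18 and 0.22 in shLAD1 cells without library 2 at 240 min or library 1 at 0 min. In scramble cells it became 0.08 and 0.11. Over the fits without 1 library it ranged from -0.24 to 0.22 in shLAD1 and from -0.13 to 0.11 in scramble cells. With the replicate block, 4, 4 and 1 genes were called between shLAD1 and scramble cells at 0, 40 and 240 min, where 11.5%, 11.3% and 10.5% of all tested genes were. With the replicate block within shRNA 3 were called at 40 min of EGF in shLAD1 cells, where 4.77% of all tested genes were. Against 0 min at 240 min the block gave 42 in shLAD1 and 41 in scramble cells, with 4249 and 4557 of all tested genes, and within shRNA 44 and 44, with 6450 and 6715 (2585 and 2813 without a block). Total-count scaling moved the median of all genes at 240 min by -0.12 in shLAD1 and -0.13 in scramble cells and gave 35 and 34 calls, with medians of 0.56 and 0.50 for the 45 genes against -0.13 and -0.14 for all genes. Upper-quartile scaling called 1275 of all genes higher and 1329 lower in shLAD1 cells and 1453 and 1448 in scramble cells. RRP1B in shLAD1 cells lost its call with edgeR, with no filter and with both scalings, and POLR1C in scramble cells with no filter and both scalings. Total-count scaling also lost the calls of WDR12, UTP20 and GAR1 in shLAD1 cells and of WDR74, RRP1B and DDX18 in scramble cells. The cause of these shifts was not tested. With 2 libraries a group, a 95% interval of the median width spanned 0.24 log2 units to each side for a change and 0.33 for a difference of changes.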
